A study of Mus musculus with 4 samples.

Results

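The genes described here are the C-type lectin-like receptor genes whose symbols begin with Klr or Clec. They were chosen by symbol, and Clec9a was left out. The 2 families were proposed with results of the cKO against control comparison in view. The values of that comparison are therefore given as a description and support nothing further. The table held 39 such genes of 16673, 19 Klr and 20 Clec genes, and all 39 had a mean of at least 10 normalized counts and entered the fit.

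The RNA came from marrow of mice aged 2 months, from the Lin– fraction, which is what is left once cells with mature lineage markers have been depleted. The 2 control libraries came from mice of genotype Tet3F/F, which carried floxed Tet3 alleles and no Cre. The 2 cKO libraries came from mice of genotype Tie2+/cre; Tet3F/F, in which the Tie2 promoter, active in endothelial and early blood cells, drives Cre. The design text gives 2 mice per genotype but ties no library to a mouse. Both groups shared the floxed alleles, and the labels give neither strain nor sex.

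C-type lectin-like receptors are mostly membrane proteins with a calcium-dependent or related carbohydrate-recognition fold. Klr receptors are carried mainly by natural killer (NK) cells and subsets of T and innate lymphoid cells, where they read MHC class I molecules and stress ligands as activating or inhibitory signals. Many Clec receptors are carried by monocytes, macrophages, granulocytes and dendritic cells, where they bind microbial sugars, dead cells or the body's own glycans. Genes of both families lie in the NK gene complex and its neighbourhood on mouse chromosome 6. Among inbred strains the Klra (Ly49) cluster differs in gene content.

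The libraries held 28845037 to 46673855 reads counted to genes. Control replicate 2 stood apart: its correlations with the other libraries over genes were 0.93 to 0.95, and mitochondrial protein genes took 8.16% of its reads (Wilson 95% interval 8.157 to 8.173, counting error only) against 0.989% to 1.26% elsewhere. Tet3 had 5056 and 6593 normalized counts in the control and 6400 and 5084 in the cKO libraries. The table gives Tet3 as 1 value that also takes in exons a deletion would spare, so it checks neither genotype nor labels, and cKO and control mean the libraries so labelled throughout. Xist had 5.54 and 9.57 normalized counts in the control and 87442 and 48951 in the cKO libraries, and the Y genes Ddx3y, Eif2s3y, Kdm5d and Uty had 0 reads in both cKO libraries. Genotype and sex of the mice cannot be told apart in any value below. The progenitor marker Kit had 10915 and 11537 against 14050 and 12478 normalized counts, and the mature T cell marker Cd3e (67.4 and 177 against 459.9 and 292) was detected in every library.

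The windows before the starts of 5 genes are printed, chosen for their values or levels described below. Not all of them follow the contrast between the families: the groups overlapped for Clec12a, and Klra2 ran against the other Klr genes. Klrb1c and Klrc1 had the highest log2 fold changes of the Klr genes, Klra1 and Klra2 are Ly49 genes with opposite signs, and Clec12a is the most abundant myeloid Clec gene. Each is the 250 bases upstream of a RefSeq start in build GRCm38.p6, 5′ to 3′ on the gene's strand. That build is another than the mm39 of the reads, and 33 of the 39 genes had a window (16 Klr, 17 Clec). Where 2 windows were listed for a gene, as for Klra7, only the first was used, here and in all counts below. Capitals mark matches on either strand to 4 short motifs: GGTGTG (T-box), TGTGGT (RUNX), GAGGAA (PU.1) and TTGCNNAA (C/EBP). GGTGTG and TGTGGT can overlap each other.
Klrb1c, chr6:128788642-128788891, minus strand: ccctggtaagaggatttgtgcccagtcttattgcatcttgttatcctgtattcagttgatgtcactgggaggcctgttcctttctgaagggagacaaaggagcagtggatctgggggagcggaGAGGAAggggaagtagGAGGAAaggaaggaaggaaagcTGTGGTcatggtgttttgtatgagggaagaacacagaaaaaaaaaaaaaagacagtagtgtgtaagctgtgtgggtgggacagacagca
Klrc1, chr6:129678974-129679223, minus strand: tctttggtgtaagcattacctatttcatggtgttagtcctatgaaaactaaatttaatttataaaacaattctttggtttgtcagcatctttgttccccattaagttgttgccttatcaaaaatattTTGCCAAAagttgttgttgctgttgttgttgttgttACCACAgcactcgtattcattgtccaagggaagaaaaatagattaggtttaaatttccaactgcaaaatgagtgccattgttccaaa
Klra1, chr6:130386875-130387124, minus strand: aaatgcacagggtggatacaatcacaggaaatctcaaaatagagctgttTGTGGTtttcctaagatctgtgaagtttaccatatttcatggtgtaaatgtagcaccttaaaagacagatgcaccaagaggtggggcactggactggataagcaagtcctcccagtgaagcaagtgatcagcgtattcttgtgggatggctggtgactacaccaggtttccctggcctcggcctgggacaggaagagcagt
Klra2, chr6:131247363-131247612, minus strand: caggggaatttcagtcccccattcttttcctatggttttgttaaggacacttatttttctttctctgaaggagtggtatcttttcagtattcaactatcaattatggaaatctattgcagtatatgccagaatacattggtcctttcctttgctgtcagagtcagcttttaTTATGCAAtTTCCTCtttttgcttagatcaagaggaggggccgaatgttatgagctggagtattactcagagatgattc
Clec12a, chr6:129349994-129350243, plus strand: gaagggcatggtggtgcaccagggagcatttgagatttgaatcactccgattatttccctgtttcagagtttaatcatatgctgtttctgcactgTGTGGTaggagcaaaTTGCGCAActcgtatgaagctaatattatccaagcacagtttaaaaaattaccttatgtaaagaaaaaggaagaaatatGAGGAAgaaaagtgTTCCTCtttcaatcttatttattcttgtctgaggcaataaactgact

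Klra1 carried the RUNX letters alone, and Klra2 carried the C/EBP and PU.1 letters side by side and no RUNX match. The Klra3 and Klra6 windows held the same motif counts as Klra2 (1 C/EBP, 1 PU.1, no RUNX). Klra7 and Klra9 had no RUNX match either, and all of these but Klra2 had log2 fold changes above 0. Whether the letters go with the sign was not tested, since Klra2 was the only Ly49 gene below 0 and the groups of Klra6 overlapped. Clec12a held the RUNX, C/EBP and PU.1 letters. Over all windows, the RUNX letters were in 7 of 16 Klr and 5 of 10 myeloid Clec windows, against 14.2% of 27025 windows of the same length. The PU.1 letters were in 9 of 16 and 8 of 10, against 23.1%. The C/EBP letters were in 6 of 16 and 2 of 10, against 9.55%, and the T-box letters in 3 of 16 and 2 of 10, against 16.2%. A match is a run of letters and not a bound site, and absence says only that the letters are not in the window. Neighbouring Klra and Clec4 genes arose by duplication, so their windows are not independent of one another.

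The Klr genes lay mostly above 0, and the myeloid Clec genes mostly below it by a smaller amount. Of 19 Klr genes, 18 had a log2 fold change above 0 (cKO minus control, after 1 was added to each normalized count, so that values of low genes depend on the added 1) and the median was 1.44. Of 11 myeloid Clec genes, 8 had one below 0 and the median was -0.40, which became 0.043 without control replicate 1. Over all 20 Clec genes, 10 lay above and 10 below 0, with a median of 0.039. The median over all 16598 genes tested was 0.01, with 8424 above 0. The 9 other Clec genes, which encode ligands or are known from platelets, endothelium, stroma or most cells, had 7 above 0. In RNA from a mixture of cells, fewer cells of a type and less RNA per cell cannot be told apart.

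**Figure D1:**
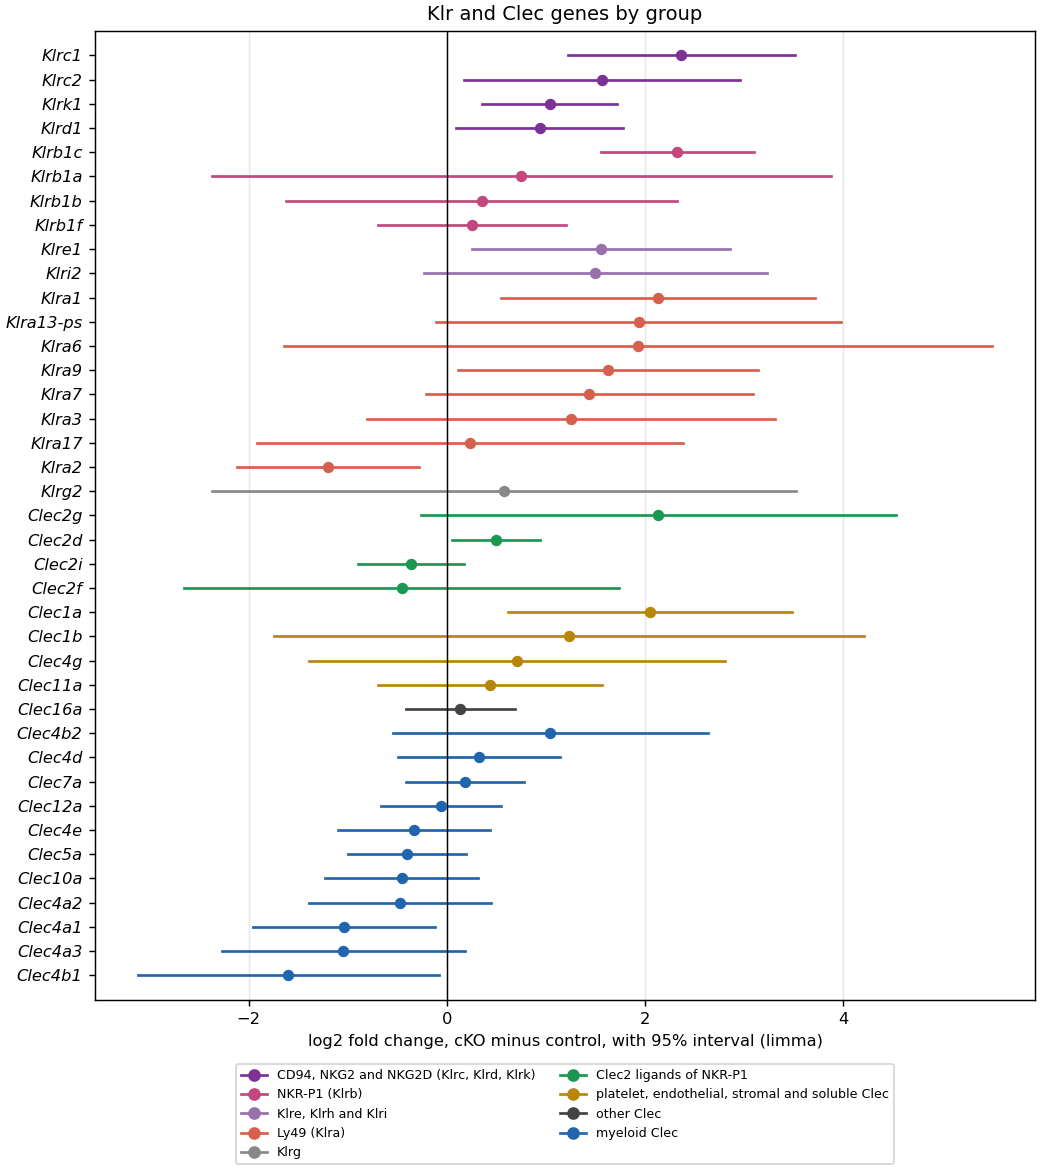
Log2 fold change of each of the 39 genes (points, x axis, cKO minus control) with its 95% interval from limma (lines), grouped and coloured by subfamily. The Klrc, Klrd and Klrk genes all lie above 0, Klra2 is the Klr gene below 0, and 8 of 11 myeloid Clec genes lie below 0.

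No member passed the test over all genes (limma with Benjamini-Hochberg adjustment, 0 of 39, against 0.0723% of all genes), and the smallest adjusted p was 0.14, for Klrb1c. At an unadjusted p under 0.05, 10 members were higher in cKO, against 3.49% of all genes, and 3 were lower, against 2.61%. edgeR on the recovered reads called 0 of 39, against 0.0723%, and DESeq2 called 2 of 39, Klrb1c and Klrc1, both higher, against 0.428% of genes called higher. Both cKO libraries lay above both controls in 12 of 19 Klr and 0 of 11 myeloid Clec genes, against 19.2% of all genes. They lay below in 1 Klr gene and 2 myeloid Clec genes, against 19.5%. Since the families were proposed with this comparison in view, nothing is read from these counts.

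Summed over the family, Klr genes had 2604 and 2302 normalized counts in control replicates 1 and 2 and 4443 and 3681 in cKO replicates 1 and 2. The 11 myeloid Clec genes summed to 21795 and 14858 in the controls and 13610 and 18764 in the cKO libraries. Klr sums did not overlap between groups, whereas myeloid Clec sums did. Klr transcripts equalled 11.9% and 15.5% of the myeloid Clec sum in the controls and 32.6% and 19.6% in the cKO libraries. Klrb1f and Klra2 made up much of the control sum. Without them, Klra17 and Klrg2, the other 15 Klr genes equalled 3.93% and 8.25% in control and 25.1% and 12.2% in cKO. Klra2 ran the other way and the groups of Klrb1f, Klra17 and Klrg2 overlapped, so leaving these out widens the contrast by construction. Nothing is read from the widening. Within cKO the families leaned in opposite directions: replicate 1 exceeded replicate 2 in 15 of 19 Klr genes but in 2 of 11 myeloid Clec genes. Within control, replicate 1 exceeded replicate 2 in 6 of 19 Klr and 9 of 11 myeloid Clec genes. Over all genes these shares were 49.4% and 49%.

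**Figure D2:**
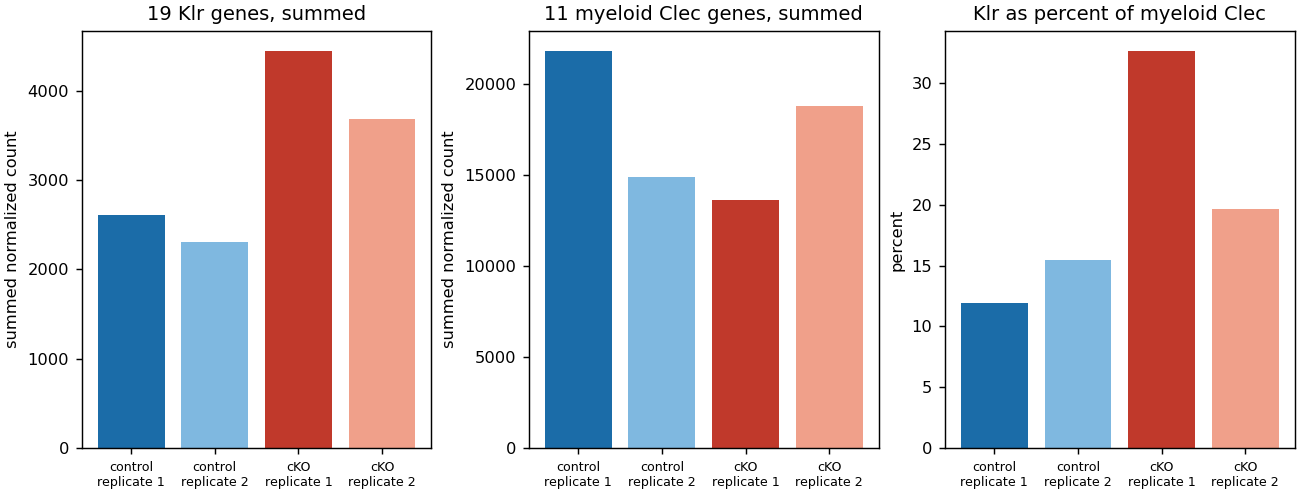
Summed normalized counts of the 19 Klr genes (left) and the 11 myeloid Clec genes (middle) in each of the 4 libraries, and the first as a percent of the second (right), 1 bar a library. Klr sums are 2302 to 2604 in control and 3681 to 4443 in cKO, while the myeloid Clec sums of the groups overlap.

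Among the CD94 and NKG2 receptors all 4 genes in the table had both cKO libraries above both controls, against 19.2% of all genes. Klrk1 encodes NKG2D, an activating receptor for stress-induced ligands. It had 331 and 368 normalized counts in the controls and 884 and 581 in the cKO libraries, a log2 fold change of 1.04 (SE 0.29). Klrd1 encodes CD94, the shared partner chain of NKG2A and NKG2C, and had 192 and 286 against 573 and 353 (0.94, SE 0.36). Klrc1, the inhibitory NKG2A chain, had 50.8 and 126 against 497 and 349 (2.36, SE 0.49), the highest log2 fold change of the 39 genes. Its groups were far apart, the lower cKO library holding more than the 2 controls together. Klrc2, the activating NKG2C chain, had 22.2 and 55.8 against 117 and 96.5 (1.56, SE 0.60). Control replicate 1 was the lowest library for all 4 genes and cKO replicate 1 the highest.

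Klrc1 and Klrc2 share some sequence. In GENCODE M21 transcripts, 5% of the 150-base stretches of the longest Klrc1 transcript also occur in Klrc2, and 1.7% of those of Klrc2 occur in Klrc3. Per kilobase of exon, Klrd1 stood at 187 in control and 361 in cKO, Klrc1 at 44.6 and 213, and Klrc2 at 6.71 and 18.3. The partner chain Klrd1 was thus above Klrc1 and Klrc2 on that scale in both groups. Klrk1, which does not encode NKG2A or NKG2C, stood at 48.6 and 102. The scale depends on the annotated exon bases, 1281 for Klrd1, 1984 for Klrc1, 5812 for Klrc2 and 7183 for Klrk1.

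The NKR-P1 receptors, encoded by Klrb1 genes, did not behave as 1 group. Klrb1c encodes NK1.1, an activating receptor used to identify NK cells in some strains. It had 98.8 and 112 normalized counts in the controls and 625 and 454 in the cKO libraries (2.33, SE 0.33), 5.10-fold by the group means, and the replicates of each group were close. Klrb1f, whose product binds the Clec2i protein, was the most abundant Klr gene, with 1188 and 489 against 796 and 1041 (0.26, SE 0.41). The groups overlapped fully, both cKO values falling between the controls. Klrb1b, an inhibitory receptor that binds the Clec2d protein, had 48.01 and 12.0 against 42.03 and 22.98, and Klrb1a had 1.85 and 17.5 against 25.7 and 4.595, both overlapping. Part of Klrb1c (10.4% of 150-base stretches) and of Klrb1b (23.6%) also belongs to the annotated gene Gm44511, so their counts could be split with it.

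Klre1 and Klri2 encode chains that join as a receptor of NK cells. Klre1 had 27.7 and 63.8 against 141 and 111 normalized counts (1.55, SE 0.56). Klri2 had 29.5 and 18.3 against 124 and 36.8 (1.498, SE 0.74), and its cKO replicates differed widely. For both genes each cKO library lay above each control. Klrg2, a little-studied member, had 29.5 and 3.19 against 35.0 and 6.89, low in replicate 2 of each group.

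The Ly49 receptors, encoded by Klra genes, bind MHC class I molecules on NK cells, and 2 members are known from other cells: Klra2 (Ly49B) from myeloid cells and Klra17 (Ly49Q) from plasmacytoid dendritic and myeloid cells. Klra2 was the most abundant and ran against the rest, with 511 and 570.3 normalized counts in control and 159.9 and 344 in cKO (-1.20, SE 0.39). It was the only one of the 8 with both cKO libraries below both controls. Klra17 had 18.5 and 14.4 against 39.7 and 9.19, overlapping. The other 6 Klra genes all had a log2 fold change above 0, from 1.25 to 2.13.

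Klra1, the inhibitory receptor Ly49A, had 11.1 and 27.1 normalized counts in control and 98.1 and 64.3 in cKO (2.13, SE 0.68). The annotated pseudogene Klra13-ps had 9.23 and 48.7 against 134 and 54.0 (1.94, SE 0.87), where control replicate 2 nearly reached cKO replicate 2. Klra7 (Ly49G) had 12.9 and 41.5 against 63.04 and 66.6, Klra9 (Ly49I) 16.6 and 14.4 against 51.4 and 48.3, and Klra3 (Ly49C) 5.54 and 11.2 against 21.01 and 19.5. In these 5 genes both cKO libraries lay above both controls, against 19.2% of all genes. Klra6 (Ly49F) was at 0 reads in control replicate 1, which allows up to 3 reads or 2.77 normalized counts, and at 22.3 in control replicate 2, above both cKO libraries (16.3 and 18.4), so its fitted value of 1.92 depends on the added 1. No 150-base stretch of any of the 8 longest Klra transcripts matched another annotated gene exactly.

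**Figure D3:**
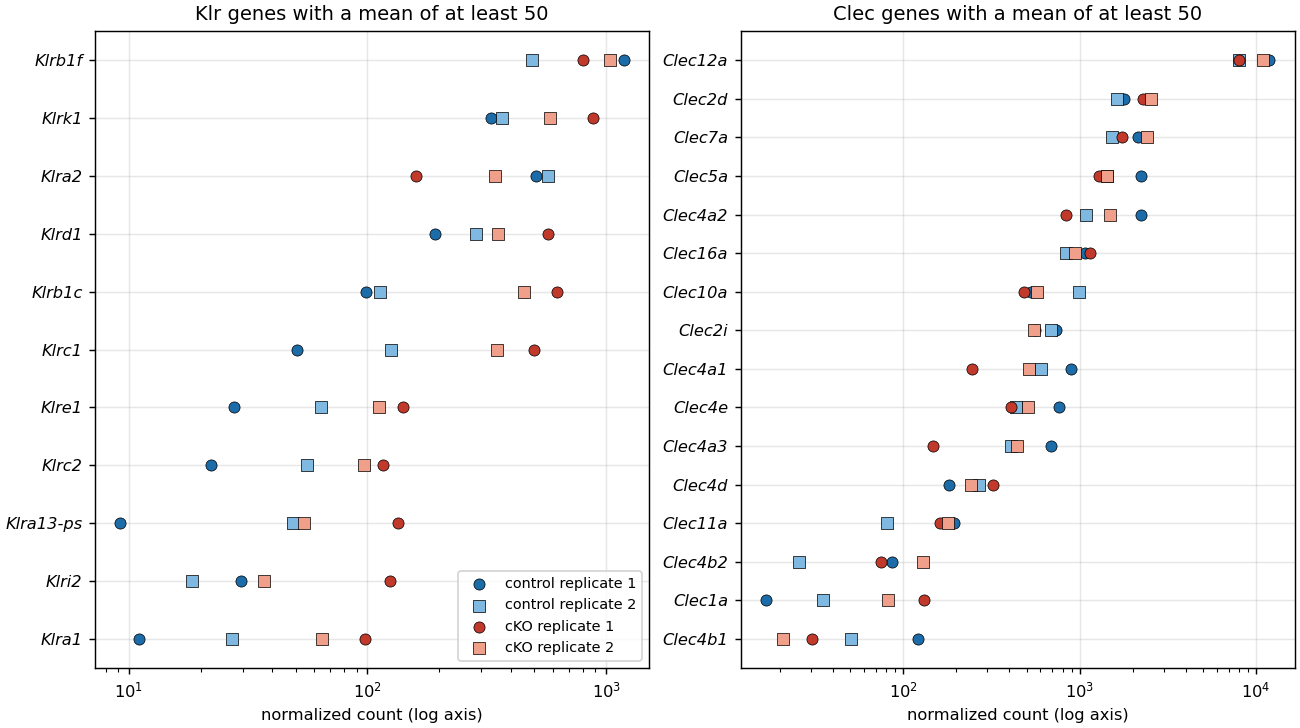
Normalized counts (log x axis) of the 11 Klr genes (left) and 16 Clec genes (right) with a mean of at least 50, 1 point per library (blue control, red cKO; circles replicate 1, squares replicate 2). Some points hide others where values coincide. Red points lie right of blue ones for 9 Klr genes, against 19.2% of all genes, and left of them for Klra2, against 19.5%. Colours mix for most Clec genes. Nothing is read from these counts, since the families were proposed with this comparison in view.

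Among Clec genes with a myeloid role, Clec12a was the most abundant, an inhibitory receptor for uric acid crystals and dead cells. It had 11929 and 8027 normalized counts in control and 8036 and 10985 in cKO (-0.06, SE 0.26), and made up 54.0% to 59.0% of the myeloid Clec sum in every library. Clec7a encodes Dectin-1, a receptor for fungal beta-glucan, and had 2142 and 1529 against 1739 and 2416 (0.18, SE 0.25). The interval of the difference ran from -0.67 to 0.55 for Clec12a and from -0.41 to 0.77 for Clec7a, so a difference in either direction within those bounds is open for each gene. Clec5a, which signals through the adaptor Tyrobp, had 2237 and 1434 against 1281 and 1436 (-0.40, SE 0.25). Control replicate 1 alone was high, and the other 3 libraries lay close together.

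The 4 lowest log2 fold changes among the Clec genes were in the Dcir and Dcar subfamily of Clec4 genes, which also held the highest of the myeloid Clec genes, Clec4b2. Clec4a2 (Dcir1), an inhibitory receptor of myeloid and dendritic cells, had 2220.4 and 1084 normalized counts in control and 837 and 1490.1 in cKO (-0.47, SE 0.39), which overlapped. Clec4a1 had 894 and 602 against 246 and 517 (-1.04, SE 0.39), and both cKO libraries were below both controls. Clec4a3 had 685 and 408 against 147 and 442 (-1.05, SE 0.52), with control replicate 2 below cKO replicate 2. cKO replicate 1 was the lowest library for these 3 genes. Clec4b1, a Dcar gene, had 120.9 and 50.2 against 30.4 and 20.7 (-1.60, SE 0.65), the lowest log2 fold change of the 39, with no overlap. Clec4b2 had 86.8 and 25.5 against 74.7 and 129.8 (1.04, SE 0.68), and overlapped.

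Clec4e (Mincle) and Clec4d (Mcl) encode partner receptors for mycobacterial glycolipid. Clec4e had 766 and 437 normalized counts in control and 411 and 511 in cKO (-0.34, SE 0.33), whereas Clec4d had 183 and 270.4 against 321 and 242 (0.33, SE 0.35). Both overlapped. Clec10a, a receptor for galactose-type sugars, had 531 and 991 against 487 and 573 (-0.46, SE 0.33). Here control replicate 2, and not replicate 1, was the high library.

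Clec2 genes encode ligands of the NKR-P1 receptors and lie among the receptor genes. Clec2d, found on most blood cells, had 1792 and 1633 normalized counts in control and 2290.4 and 2539 in cKO (0.50, SE 0.19). Clec2i had 738 and 685 against 557 and 549 (-0.36, SE 0.23). Each had separate groups and close replicates, in opposite directions. Clec2d thus lay 1.41-fold higher by the group means while its receptor gene Klrb1b overlapped, and Clec2i lay lower while its receptor gene Klrb1f overlapped. Clec2g had 26.8 and 3.19 against 64.2 and 33.3, and the pseudogene Clec2f had 43.4 and 13.6 against 32.7 and 9.19.

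The remaining Clec genes belong to other cells. Clec1a, known from endothelium and some myeloid cells, had 16.6 and 35.1 normalized counts in control and 131 and 81.6 in cKO (2.05, SE 0.61), with no overlap. The endothelial markers Kdr (57.2 and 41.5 against 126 and 175) and Pecam1 (4222 and 2922 against 5193 and 4228) were also higher in both cKO libraries. Cdh5 (95.1 and 47.9 against 224 and 66.6) and Emcn (99.7 and 108 against 79.4 and 106) were not. Over the whole list of 10 stroma and endothelium markers 5 lay above 0 and 5 below (median 0.09). In 3 both cKO libraries lay above both controls, against 19.2% of all genes. They lay below in 3, Col1a1, Col1a2 and Bglap, against 19.5%. The part of these markers in the Clec1a value was not tested. Clec1b, a podoplanin receptor of platelets, had 2.77 and 64.6 against 43.2 and 29.9. Its first control value is 3 reads, and the group means of 33.7 and 36.5 are near each other while its fitted log2 fold change is 1.23. Clec11a, a secreted growth factor of marrow stroma, had 193 and 81.4 against 161 and 179. Clec4g, known from liver endothelium, had 6.46 and 17.5 against 15.2 and 21.8. Clec16a, which is not a receptor and acts in autophagy, had 1076 and 832 against 1141 and 948 (0.14, SE 0.24).

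On chromosome 6 lay 35 of the 39 genes, all 19 Klr and 16 Clec genes, by the GENCODE M21 order (build GRCm38, used for order only). The rest were Clec11a on chromosome 7, Clec4g on 8, Clec10a on 11 and Clec16a on 16. A first run from Clec4a1 to Clec4e held 7 Clec genes, 5 of them below 0 (median -0.47). A second run, from Klrb1a to Klra2, held 18 Klr and 8 Clec genes, of which 17 and 5 were above 0. Within it the 6 neighbours from Klre1 to Klri2 had values of 0.94 to 2.36. In all 6 both cKO libraries lay above both controls, against 19.2% of all genes. Nothing is read from this count, since the families were proposed with this comparison in view.

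Genes next to each other did not always share a value. Clec1a (2.05) and Clec7a (0.18) are adjacent with no annotated gene between them. Klrb1c (2.33) and Klrb1b (0.35) have 1 gene between them. Klra1 (2.13) and Klra2 (-1.20) have 27 between them, so Klra2 lies at the far edge of the Ly49 run.

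**Figure D4:**
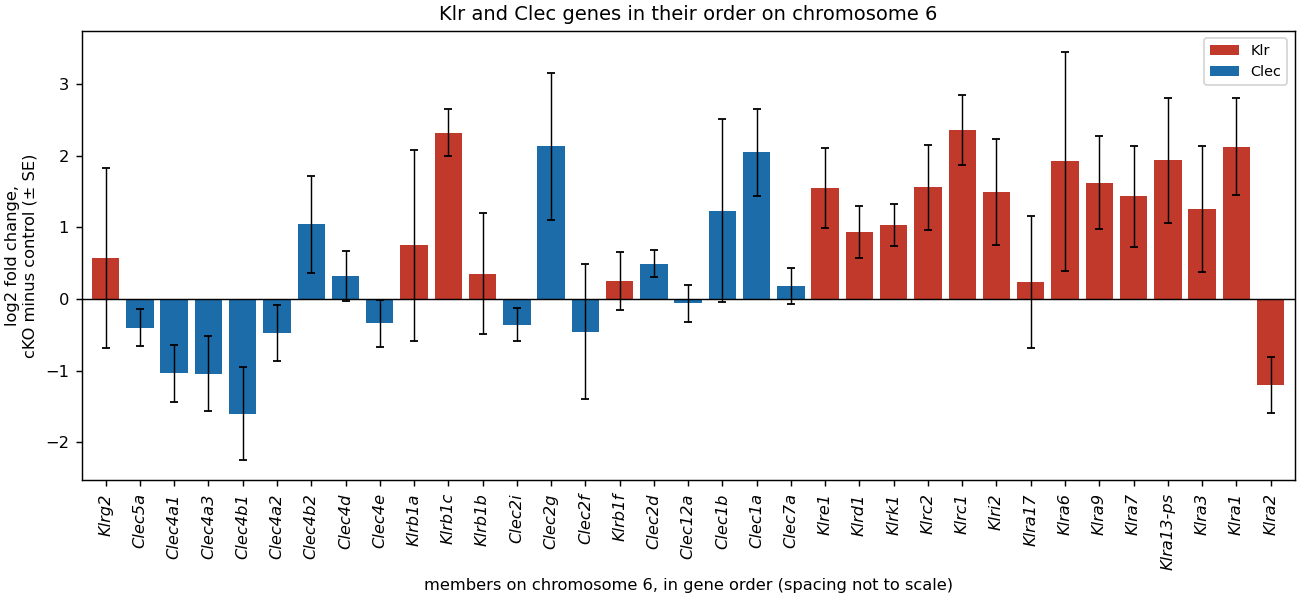
Log2 fold change (y axis, cKO minus control, bars, with SE as error lines) of the 35 genes on chromosome 6 in gene order, red for Klr and blue for Clec. The Clec4a1 to Clec4e run is mostly below 0, the run from Klre1 to Klra1 is above 0, and Klra2 at its end is at -1.20.

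Lymphocyte marker lists also lay mostly above 0, although limma called 0 of their genes, against 0.0723% of all genes. DESeq2 called 2 NK, 2 T cell and 1 innate lymphoid marker, all higher, against 0.428% of all genes called higher. The lists were chosen with earlier results of these data known, so nothing is read from these counts. Of 11 NK cell markers 9 had a log2 fold change above 0 (median 1.32). In 6 both cKO libraries were above both controls, against 19.2% of all genes. Among the 6 were Il2rb (698 and 1099 against 3125 and 2271), a cytokine receptor chain, and Tbx21 (56.3 and 113 against 397 and 226), a transcription factor. The defining NK marker Ncr1 had 18.5 and 3.19 against 67.7 and 48.3, and none of the 11 was at 0 in any library. Their sum was 7406 to 10622 in control and 10641 to 10815 in cKO, with the highest mean for Nkg7 (8474 and 4671 against 4975 and 6616), which overlapped. The 9 T cell markers in the table were all above 0 (median 1.48, sum 1191 to 1927 against 2789 to 3869). Of 8 innate lymphoid markers 7 were above 0 (median 0.57, sum 2325 to 3483 against 3170 to 5657), and their sums overlapped. Of 5 B cell markers 4 were above 0 (median 0.55), 4 overlapped, and the sum was 899 to 1075 against 1039.7 to 1243. The part of these cells in the Klr values was not tested.

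Markers of myeloid cells differed by cell type. Of 10 monocyte and macrophage markers 5 were above 0 (median 0.07, sum 68842 to 126690 against 86352 to 99167). Both cKO libraries lay below both controls in 2, Ccr2 (24452 and 17304 against 13217 and 14891) and Fcgr1, against 19.5% of all genes. They lay above both controls in 2, Cx3cr1 and Mrc1, against 19.2%. The other 6 overlapped, among them Ly6c2 and Irf8, the 2 of highest mean. Of 9 neutrophil markers 3 were above 0 (median -0.24), and their sum was 112250 in control replicate 2 against 461230 in replicate 1 and 302820 to 351220 in cKO. Of 10 dendritic cell markers 6 were above 0 (median 0.33, sum 14366 to 17452 against 17305 to 21305). All 9 eosinophil markers were above 0 (median 1.51), 6 of them overlapping, and their sum was 22194 and 4104 in control replicates 1 and 2 against 13592 and 25422 in cKO. Limma called 0 markers of these 4 lists, against 0.0723% of all genes, and no marker of them was at 0 in any library. Their part in the Clec values was not tested.

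The signalling genes downstream of both families went both ways. Of 16 adaptors and kinases 9 were above 0, with a median of 0.09 and a range of -0.81 to 1.39. The groups overlapped in 10 of them. Both cKO libraries lay above both controls in 4, against 19.2% of all genes, and below them in 2, against 19.5%. In the limma test 0 passed, against 0.0723% of all genes. Tyrobp and Fcer1g, the adaptors of many activating Klr and Clec receptors, had 7742 and 4615 against 4852 and 6132.5 normalized counts and 5870.1 and 4436 against 3695 and 4819, both overlapping. Card9, which relays Dectin-1 and Mincle signals, had 5367 and 5444 against 2675 and 3551 (-0.81, SE 0.20), and both cKO libraries were lower. Zap70, a kinase of T and NK cells, had 124 and 214 against 475 and 387 (1.39, SE 0.37). Hcst, the NKG2D adaptor, had 305 and 459 against 333 and 261 while Klrk1 was higher in both cKO libraries. The 3 inhibitory phosphatase genes (Ptpn6, Ptpn11 and Inpp5d) overlapped, with log2 fold changes of 0.00 to 0.05.

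Ligand genes of the Klr receptors were mixed, with 4 of 9 above 0 and a median of -0.06. The MHC class I genes H2-K1 (42790 and 52481 against 38152 and 41708) and H2-D1 (41235 and 39462 against 31505 and 35466), read by Ly49 receptors, were lower in both cKO libraries. Their log2 fold changes were -0.25 (SE 0.24) and -0.27 (SE 0.22). B2m, on the same list, had 39124 and 25718 against 35297 and 37142 (0.19, SE 0.26), which overlapped. H2-T23, which encodes the Qa-1 ligand of the CD94 pairs, had 4378 and 6213 against 4573 and 7254. The NKG2D ligand genes Ulbp1 (1054 and 678 against 1046 and 1443) and H60b (9.23 and 11.2 against 109.7 and 24.1) had log2 fold changes of 0.54 (SE 0.29) and 2.24 (SE 0.88). Raet1e, another NKG2D ligand gene, was lower in both cKO libraries, with 18.5 and 28.7 against 0 and 9.19 normalized counts. The 0 allows up to 3 reads, or 3.502 normalized counts, so its fitted value depends on the added 1.

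The values moved with single libraries, in a different way for each family. Without control replicate 2, the library that stood apart, 15 of 19 Klr genes were above 0 (median 1.70) and 9 of 11 myeloid Clec genes below (median -0.72). Without control replicate 1, 16 of 19 Klr genes were above 0 (median 0.91), while the myeloid Clec median was 0.043 with 5 of 11 below 0. The sign of that median thus depended on control replicate 1, while Clec4b1, Clec4a3, Clec4a1, Clec10a and Clec5a stayed below 0 whichever library was dropped, the last 2 reaching -0.0071 and -0.081. Without cKO replicate 1, 14 of 18 tested Klr genes were above 0 (median 1.24) and the myeloid Clec median was -0.18. Of the 27 genes with a mean of at least 50, 10 of 11 Klr and 10 of 16 Clec genes kept their sign whichever single library was dropped. The exceptions were Klrb1f, Clec12a, Clec7a, Clec4a2, Clec16a, Clec4e and Clec11a. Without control replicate 1 the log2 fold change was 2.23 for Klrb1c and 1.72 for Klrc1. Without control replicate 2 it was 2.42 for Klrb1c and 3.01 for Klrc1.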

How the data were processed

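The authors deposited 1 signal value for each gene and library, a read count over a size factor. The submitters' processing notes name Trim Galore 0.6.7, STAR 2.7.9a, featureCounts, SAMtools, DESeq2 and build mm39. Settings and annotation: not given in the sources used here. Columns named WT were taken as control by group and number. All values were whole multiples of 1 read (100%, within 0.1 read), so reads were recovered by division (size factors 1.08, 1.25, 0.857 and 0.870). 3 of the 4 recovered totals exceed the range of reads per sample in the design text, and whether mates of a pair were counted separately is not given. Replicates differed beyond counting noise. The design text gives 2 mice per genotype but ties no library to a mouse, so p-values measure only the spread between these samples.

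Values plus 1 were taken to log2 and, for the 16598 genes whose mean reached 10, fitted in limma 3.58.1 (R 4.3.3) with trended moderation (two-sided, Benjamini-Hochberg threshold 0.05). With 2 libraries a group, the smallest exact permutation p is 0.33. edgeR 4.0.16 and DESeq2 1.42.0 on recovered reads were alternatives, as were pseudocounts of 0.5 and 10, filters, TMM, no variance trend, a replicate block and each library left out. Steps were tested on simulated data. Members, subfamily and marker lists were chosen with earlier results of these data known. Named genes were all members with a mean of at least 50, and others by level. Pathway and marker genes beyond the 3 of highest mean in a list were named after their values were seen. Exon lengths and shared 150-base stretches came from GENCODE M21.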

Additional observations from a re-analysis of the deposited data

How the results depend on the processing

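Main counts of genes called by limma were 5 higher and 7 lower. A mean of at least 50 gave 2 higher, no variance trend 2, the replicate block 3 higher and 5 lower, and DESeq2 71 higher and 36 lower. With each library left out in turn, 4 to 231 genes were higher and 8 to 161 lower, the largest of both without control replicate 1. Dropping 1 library at a time put the Klr median (1.44) between 0.91 and 1.70, the myeloid Clec median (-0.40) between -0.72 and 0.043, and their difference (1.84) between 0.87 and 2.42, each lowest in size without control replicate 1. Over all 20 Clec genes the median was 0.039 in place of -0.40. Klra2, Klra17 and Klrg2 all lay below the Klr median. Without them that median was 1.52, and without Klra genes 1.04. The other alternatives moved these medians by less than the spread between replicates, 18 of 19 Klr genes stayed above 0 in all of them that tested all 19, and with a mean of at least 50 it was 10 of 11. Replicate numbers share no stated origin, and same-numbered libraries did not deviate together (r = -0.07). The replicate block, unlike DESeq2 (2 members), called no member. Leaving out a library recomputed the filter on the remaining 3, and a lone library was assumed to vary like the other group. With 2 libraries a group the spread between libraries limits these values, low genes included: the controls held 0 and 28 reads of Klra6 and 3 and 81 of Clec1b. edgeR put these genes at 0.63 and 0.13, against 1.92 and 1.23 in limma, and the Klr median at 1.26.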
